A study of Mus musculus with 6 samples.

Results

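The collagen chain genes are the protein-coding genes whose GENCODE M21 symbol is Col, a number, the letter a and a number. The annotation holds 44 of them, of which 43 have a row in the count table of 23508 genes and 36 passed the filter on low counts, among 16755 genes tested. They fall into 11 fibrillar, 8 basement membrane, 9 fibril-associated and 16 other collagens. RNA was sequenced from 6 tumors grown from 4T1, a mouse mammary carcinoma line that stands for the triple-negative subtype. By the labels 3 were taken before any peak in the recorded neural activity (before peak) and 3 on the day of the first peak (with peak), and the question is which transcripts differ when that activity begins. Tumors are numbered by their replicate number in the labels. No genotype, treatment, host strain, mouse age or tumor age is given for either group, all tumors came from a single cell line, and the labels do not say whether each came from a separate mouse, so the p-values measure the spread between these samples only. Tumor age and the peak cannot be told apart.

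Collagens are secreted proteins of the extracellular matrix, built from chains that wind around each other in a triple helix. Fibrillar collagens form the banded fibers that give tissue its tensile strength, and in carcinomas they are made mainly by fibroblasts. Type IV collagen forms the sheet-like network of basement membranes under epithelium and around vessels, while fibril-associated collagens coat the fibers and link them to other matrix. Epithelial cells themselves make the collagens that anchor them to the matrix below, types VII and XVII.

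Library totals ran from 10591067 to 14549357 counts, and collagen genes took 1.19% to 2.24% of them. Markers of carcinoma epithelium were present in every tumor, with Krt8 at 1059 to 1716 CPM (counts relative to the library total, scaled between libraries by TMM) and Epcam at 194 to 399 CPM. Skeletal muscle markers summed to 83.8 to 388 CPM before the peak and to 373, 2097 and 2081 CPM in with-peak tumors 1, 2 and 3, with 24 of 24 positive, and the part of muscle in the collagen values was not tested. No 2 libraries of 1 group agreed within sampling noise. The share of collagen RNA that each cell type supplied was not measured, and in bulk tissue fewer cells of a type and less RNA per cell cannot be told apart.

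None of the 36 tested collagen chains passed an adjusted p of 0.05 in edgeR's quasi-likelihood test, the main test, in which 0 of 16755 genes passed (0%). The smallest adjusted p among them was 0.297, for Col7a1. At an unadjusted p under 0.05, 0 chains were higher with peak, against 6.12% of all genes tested, and 4 were lower, against 3.38% (9.5% of all genes in either direction). The 4 were Col7a1, Col17a1, Col9a3 and Col4a5. DESeq2, run as an alternative, called 1 chain, Col7a1 (adjusted p = 0.0117), and 1.55% of all genes. The median log2 fold change (log2 ratio of with peak to before peak) was -0.12 over the 36 chains and -0.02 over all genes tested.

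The medians of the 4 classes differed in sign. Of 10 fibrillar chains tested, 7 had a positive log2 fold change, and the median of the class was 0.33. All 6 basement membrane chains tested had a negative one, with a median of -0.15, and so did 6 of 7 fibril-associated chains, with a median of -0.20. Among the 13 other chains 8 were positive and the median was 0.08. Over all genes tested 47.7% were positive. These medians describe the chains that passed the filter, and they move with single tumors. Without with-peak tumor 2 they were -0.02 for the fibrillar, -0.33 for the basement membrane and -0.37 for the other collagens, and without with-peak tumor 3 the basement membrane median was -0.013, with Col4a2 positive at 0.015.

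**Figure D1:**
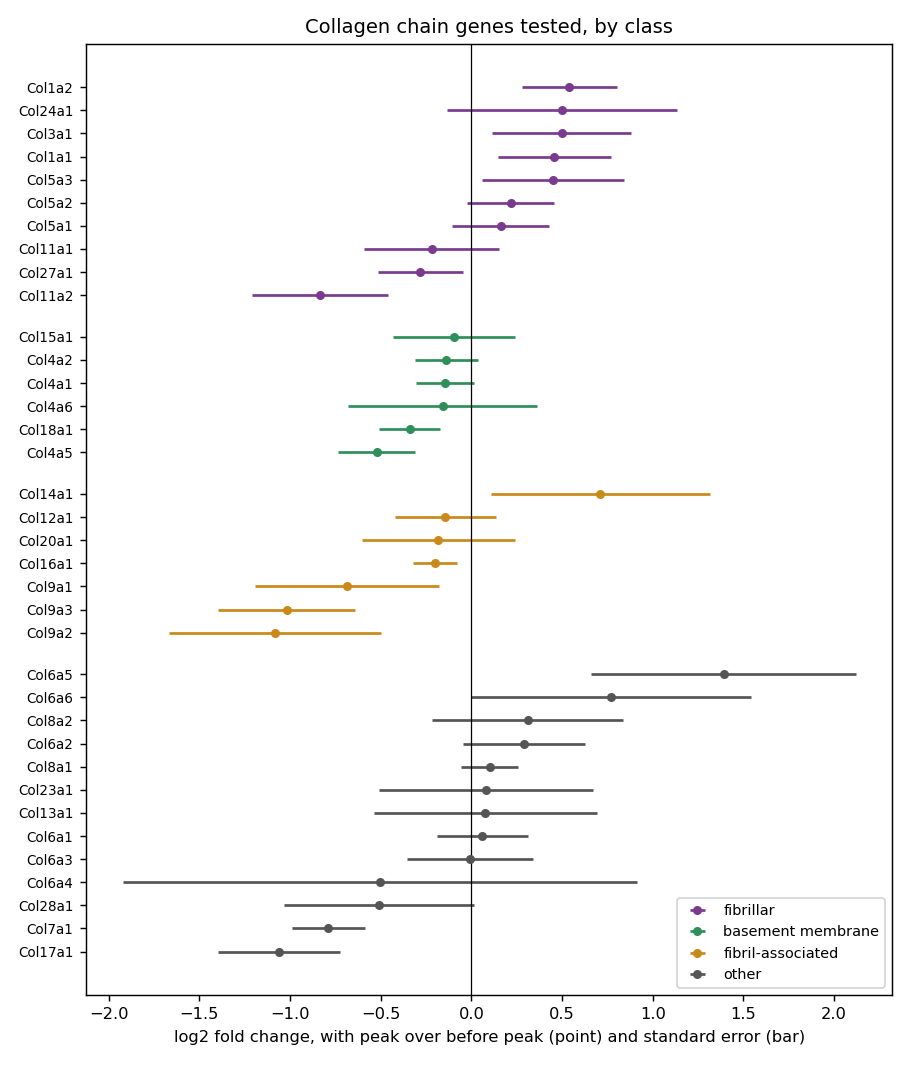
Log2 fold change with peak over before peak (points) and its standard error (bars) for the 36 collagen chains tested, sorted within 4 classes. All 6 basement membrane chains lie left of 0, 7 of 10 fibrillar chains lie right of it, and Col7a1 and Col17a1 lie lowest among the other chains.

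Col1a1 and Col1a2 encode the chains of type I collagen, the main collagen of stroma. Col1a1 (ENSMUSG00000001506, GRCm38 chromosome 11, 94936224 to 94953042) was at 2148, 2541 and 3937 CPM in before-peak tumors 1, 2 and 3 and at 2932, 5469 and 3449 CPM in with-peak tumors 1, 2 and 3. With-peak tumor 2 was far above the rest, and before-peak tumor 3 was above both other with-peak tumors. The log2 fold change was 0.46 (SE 0.31; adjusted p in edgeR 0.704), and with 1 tumor left out it ran from 0.15 (without with-peak tumor 2) to 0.75 (without before-peak tumor 3).

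Col1a2 (ENSMUSG00000029661, chromosome 6, 4504814 to 4541544) was at 1511, 1635 and 2356 CPM before the peak and at 2106, 3676 and 2220.4 CPM with it. Again before-peak tumor 3 was above with-peak tumors 1 and 3, so that the groups overlapped. Its log2 fold change of 0.54 (SE 0.26; adjusted p in edgeR 0.577) had the smallest p of the type I, III and V chains, and was 0.23 without with-peak tumor 2.

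Col3a1, the single chain of type III collagen, which is laid down with type I in soft and healing tissue (ENSMUSG00000026043, chromosome 1, 45311538 to 45349706), was at 2867, 2155 and 4588 CPM before the peak and at 3089, 6559 and 3916 CPM with it. As for both type I chains, with-peak tumor 2 was highest and before-peak tumor 3 second. The log2 fold change was 0.50 (SE 0.39; adjusted p in edgeR 0.739), and it ran from 0.12 to 0.85 without the same tumors.

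Type V collagen copolymerizes with type I and helps to start fibrils. Col5a1, Col5a2 and Col5a3 had log2 fold changes of 0.16, 0.22 and 0.45 (SE 0.27, 0.24 and 0.39), each with with-peak tumor 2 as its highest tumor. Col5a3 was at 122, 155 and 228 CPM before the peak and at 140.4, 348 and 201 CPM with it. Col5a1 shares exon bases with 2 genes on the opposite strand, and as the libraries carry no strand mark its count is uncertain to that extent.

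Among the low fibrillar chains, Col11a2, a chain of the cartilage collagen XI, was at 3.29, 7.20 and 5.33 CPM before the peak and at 3.30, 3.29 and 2.23 CPM with it (log2 ratio -0.84, SE 0.38; adjusted p in edgeR 0.525). The groups overlapped through before-peak tumor 1, and the log2 ratio was -0.55 without before-peak tumor 2. Col11a1, Col27a1 and Col24a1, each under 20 CPM in all 6 tumors, had log2 fold changes of -0.22, -0.28 and 0.50, and Col24a1 had the same highest, second and lowest tumors as Col3a1. Col2a1, the main collagen of cartilage, had 26 counts in all libraries together and was not tested. Of 15 cartilage and bone markers, 6 (Acan, Matn1, Hapln1, Cnmd, Bglap and Sp7) were not analysed here, and 7 of 7 tested had a negative log2 fold change. Their sums were 288 to 327 CPM before the peak and 175 to 273 CPM with it. Sox9, Ibsp, Dmp1 and Runx2 supplied most of each sum, and no other gene of the list was above 5.63 CPM in any tumor. The part of cells with these markers in the values of Col11a2 was not tested.

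**Figure D2:**
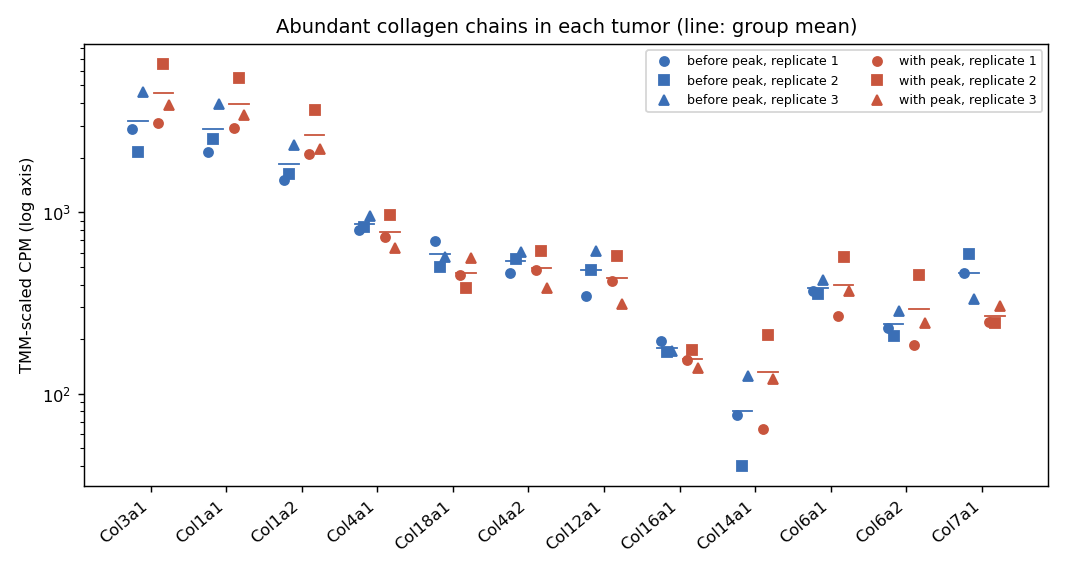
TMM-scaled CPM on a log axis in each tumor (points, symbols by replicate) and the group mean (lines) for the 3 chains of each class with the highest mean level per length. With-peak tumor 2 is the highest tumor for Col3a1, Col1a1 and Col1a2, and the groups overlap for every chain shown except Col7a1.

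With-peak tumor 2 was the highest of the 6 tumors for 18 of 36 collagen chains, where it was highest for 21.3% of all genes tested, and for 7 of 10 fibrillar chains. With-peak tumor 3 was highest for 0 of the 36 and lowest for 10, where it was highest for 12.6% and lowest for 13.5% of all genes tested. Fibroblast markers, a list that holds no collagen, had their highest sum in with-peak tumor 2. They summed to 2370.3, 2469.8 and 3082 CPM in before-peak tumors 1, 2 and 3 and to 2587, 4981 and 2918 CPM in with-peak tumors 1, 2 and 3. Of 19 tested fibroblast markers 16 were positive (median log2 fold change 0.56), and Tcf21 was not analysed here. The order of the first 3 tumors in that sum, with-peak tumor 2, before-peak tumor 3 and with-peak tumor 3, is also that of Col1a1 and Col3a1.

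Adipocyte markers, whose cells sit beside fibroblasts in the mammary fat pad, summed to 852 to 2040.1 CPM before the peak and to 898 to 2907 CPM with it, with the same 2 tumors highest. Endothelial markers summed to 639.8 to 802 and 614 to 1205 CPM and pericyte and smooth muscle markers to 455 to 585 and 549.7 to 908 CPM, each highest in with-peak tumor 2. The pericyte list shares Des with the skeletal muscle list, and without Des its sums were 447 to 575 CPM before the peak and 529, 759 and 407 CPM in with-peak tumors 1, 2 and 3. The part of these cells in the collagen values was not tested.

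Compared per kilobase of principal transcript, Col3a1, Col1a1 and Col1a2 had the highest mean levels of all chains over the 6 tumors, at 694, 575 and 421 CPM per kb. Next came Col4a1 at 124, Col18a1 at 109.8 and Col6a1 at 95.4 CPM per kb. The lowest tested chains were Col6a4 at 0.21 and Col4a6 at 0.23 CPM per kb. With the summed length of all annotated exons the order changed to Col1a1 at 520.0, Col3a1 at 393 and Col1a2 at 181 CPM per kb, followed by Col4a1 at 109.7, Col6a1 at 89.3, Col4a2 at 77.9 and Col18a1 at 74.9 CPM per kb. The same 3 chains were highest with either length.

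The share of collagen counts from these 3 genes differed between tumors. Col1a1, Col1a2 and Col3a1 together made up 55.8%, 52.5% and 63.2% of all collagen counts in before-peak tumors 1, 2 and 3, and 63.6%, 68.7% and 66.7% in with-peak tumors 1, 2 and 3. The 3 with-peak tumors lay above the 3 before-peak tumors, although with-peak tumor 1 (95% Wilson interval 63.4% to 63.8%) and before-peak tumor 3 (63.0% to 63.4%) were almost level. The means were 57.2% ± 5.48 and 66.4% ± 2.58 (SD, n = 3 each), and no test was run on this share. Those intervals cover counting error only and not the spread between tumors. The ratio of summed fibrillar to summed basement membrane CPM was 3.49, 3.52 and 5.31 before the peak and 5.10, 7.88 and 6.21 with it, so the groups overlapped through before-peak tumor 3.

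**Figure D3:**
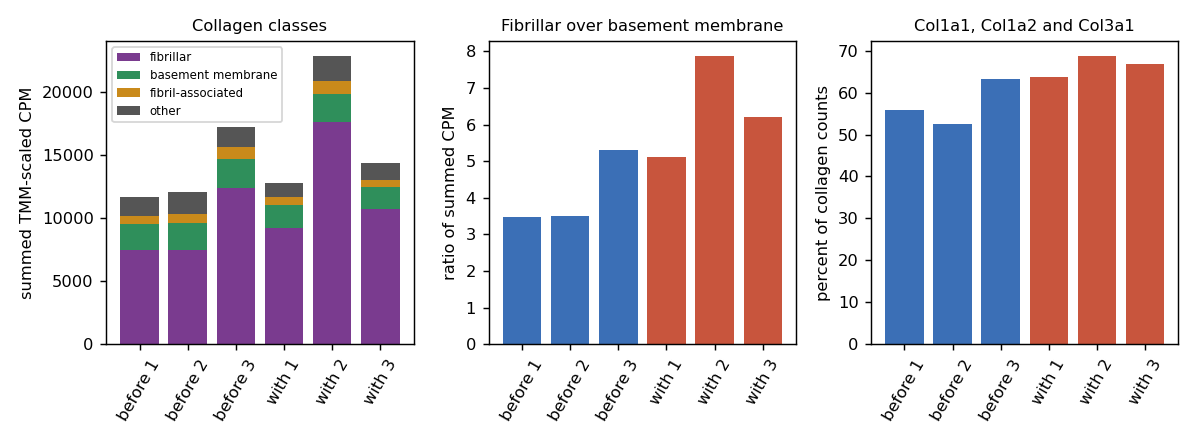
Left, TMM-scaled CPM summed over the chains of each class in each tumor; middle, the ratio of summed fibrillar to summed basement membrane CPM; right, Col1a1, Col1a2 and Col3a1 as a percent of all collagen counts. Blue bars in the middle and right panels are before-peak tumors and red bars with-peak tumors; the percent runs from 52.5 to 63.2 before the peak and from 63.6 to 68.7 with it.

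The ratio of Col1a1 to Col1a2 per kb was 1.28, 1.40 and 1.51 before the peak and 1.26, 1.34 and 1.40 with it, a mean of 1.40 ± 0.11 against 1.33 ± 0.07 (SD, n = 3 tumors each). The difference was smaller than the spread. The size of this ratio depends on the length used, and with the summed length of all annotated exons it ran from 2.64 to 3.16. For type VI, the collagen of beaded microfilaments, Col6a1 to Col6a2 per kb was 1.56, 1.64 and 1.43 before the peak and 1.39, 1.20 and 1.44 with it, and the groups overlapped.

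Col4a1 and Col4a2 encode the common chains of type IV collagen and lie head to head on chromosome 8. Their annotated first exons overlap by 22 bases (chr8:11312805-11312826, GRCm38.p6, plus strand), a stretch shown because the first exons of both genes hold it:
Col4a1 and Col4a2 first exons: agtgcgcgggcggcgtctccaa
The sequence is RefSeq's. Col4a1 (ENSMUSG00000031502) was at 803, 828 and 949.6 CPM before the peak and at 732, 968 and 634 CPM with it, and Col4a2 (ENSMUSG00000031503) at 466, 552 and 603 and at 478, 611 and 383 CPM. The tumors had the same order in both genes except that before-peak tumor 1 and with-peak tumor 1 changed places: with-peak tumor 2 was highest and with-peak tumor 3 lowest. The log2 fold changes were -0.14 (SE 0.16) and -0.14 (SE 0.17), with edgeR adjusted p of 0.806 and 0.834, and they were -0.34 and -0.33 without with-peak tumor 2 and -0.013 and 0.015 without with-peak tumor 3. The ratio of Col4a1 to Col4a2 per kb averaged 1.56 ± 0.11 in before-peak and 1.55 ± 0.06 in with-peak tumors (SD, n = 3 each). As the genes overlap on opposite strands, reads in the shared bases cannot be assigned to one of them.

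Col4a5, a chain of type IV found in fewer basement membranes (ENSMUSG00000031274, chromosome X, 141475385 to 141689234), was at 26.6, 33.4 and 23.2 CPM before the peak and at 20.7, 14.6 and 22.7 CPM with it. Every with-peak tumor was below every before-peak tumor, with before-peak tumor 3 and with-peak tumor 3 close together. The log2 fold change was -0.52 (SE 0.21; adjusted p in edgeR 0.491). Groups that do not overlap in this direction were found for 4 of 36 chains and for 7.38% of all genes tested. In the opposite direction they were found for 0 chains and for 8.13% of all genes. Col4a6, its neighbor 1308 bases away on the other strand, was at 0.94 to 2.35 CPM and had a log2 fold change of -0.16 (SE 0.52).

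Col4a3 and Col4a4, the other divergent pair, had 22 and 44 counts over all libraries and were not tested. Col4a4 had 6, 2 and 1 counts before the peak and 15, 14 and 6 with it.

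Types XV and XVIII sit in the basement membrane zone of vessels and epithelium, and their C-terminal pieces include endostatin, an inhibitor of vessel growth released from type XVIII. Col18a1 (ENSMUSG00000001435, chromosome 10, 77052178 to 77166548) was at 697, 497 and 570.0 CPM before the peak and at 452, 385 and 556 CPM with it. With-peak tumor 3 lay within the before-peak range. Its log2 fold change was -0.34 (SE 0.17; adjusted p in edgeR 0.571), and -0.20 without before-peak tumor 1. Col15a1 had one of -0.10 (SE 0.34), and its highest tumor was with-peak tumor 2, which was the lowest for Col18a1. The ratio of Col18a1 to Col15a1 per kb accordingly ran from 1.62 in with-peak tumor 2 to 5.44 in before-peak tumor 1. Col15a1 overlaps a gene on the opposite strand.

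Among the fibril-associated collagens, Col12a1, which binds type I fibers in tissue under load, was at 344, 478 and 615 CPM before the peak and at 416, 573 and 312 CPM with it (log2 ratio -0.14, SE 0.28; adjusted p in edgeR 0.902), with a negative or a positive sign depending on the tumor left out (-0.40 to 0.075). Col16a1 was at 194, 169 and 171 CPM and at 153, 173 and 139 CPM, a log2 fold change of -0.20 (SE 0.12; adjusted p in edgeR 0.650). Both chains overlapped between the groups. Col14a1, a fibril-spacing collagen of fibroblasts, was the exception in sign, at 75.9, 40.2 and 126 CPM before the peak and at 64.0, 212 and 120.1 CPM with it (log2 ratio 0.71, SE 0.60; 0.19 without with-peak tumor 2, 0.39 without before-peak tumor 2 and 1.18 without before-peak tumor 3). Its highest and lowest tumors were with-peak tumor 2 and before-peak tumor 2, as for Col3a1.

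Type IX collagen decorates the fibers of cartilage, and all 3 of its chains were low in these tumors and had a negative log2 fold change. Col9a3 was at 3.77, 5.72 and 3.75 CPM before the peak and at 2.53, 2.51 and 1.46 CPM with it, and the groups did not overlap. Its log2 fold change was -1.02 (SE 0.38; adjusted p in edgeR 0.454). Col9a2 was at 0.96, 2.35 and 4.00 CPM and at 1.12, 0.78 and 1.55 CPM (log2 ratio -1.08, SE 0.58; adjusted p in edgeR 0.613; -0.53 without before-peak tumor 3), and its groups overlapped. Col9a1 had a log2 fold change of -0.69 (SE 0.51). These values rest on 128 to 248 counts over all libraries, and Col9a3 overlaps Tcfl5 on the opposite strand. Among the cartilage and bone markers given above, Sox9 was the single one whose groups did not overlap, lower with peak. The gap was narrow, at 66.2 to 86.6 CPM before the peak and 38.8 to 65.9 CPM with it. That is 1 of 7 tested markers, against 7.38% of all genes tested in that direction. Whether the tumors held cartilage cells, and the part of such cells in the type IX values, was not tested. Col20a1, which overlaps another gene on its own strand, had a log2 fold change of -0.18, Col22a1 had 8 counts and was not tested, and Col19a1 was not analysed here.

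Col7a1 encodes type VII collagen, the anchoring fibril that fastens epithelium to the stroma below it (ENSMUSG00000025650, chromosome 9, 108953586 to 108984875). It was at 463, 590 and 331 CPM in before-peak tumors 1, 2 and 3 and at 249, 246 and 306 CPM in with-peak tumors 1, 2 and 3. All with-peak tumors were lower than all before-peak tumors, with before-peak tumor 3 nearest to them. The means were 461 ± 129 and 267 ± 33.9 CPM (SD, n = 3), a log2 fold change of -0.79 (SE 0.20; adjusted p in edgeR 0.297). DESeq2 called it lower with peak (log2 fold change -0.78, adjusted p = 0.0117), while limma-voom gave an adjusted p of 0.323 and edgeR with 1 tumor left out gave 0.0674 (without before-peak tumor 3) to 0.663 (without with-peak tumor 2).

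Col17a1 encodes the transmembrane collagen of hemidesmosomes, the junctions that hold basal epithelial cells to the basement membrane (ENSMUSG00000025064, chromosome 19, 47646344 to 47692094). It was at a far lower level, 4.57, 6.03 and 4.50 CPM before the peak and 1.89, 2.35 and 3.01 CPM with it. The groups did not overlap, the log2 fold change was -1.06 (SE 0.34; adjusted p in edgeR 0.392) and DESeq2 gave an adjusted p of 0.243. Per kb, Col7a1 was 43.6 to 59.9 times as abundant as Col17a1 before the peak and 60.3 to 77.8 times with it.

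**Figure D4:**
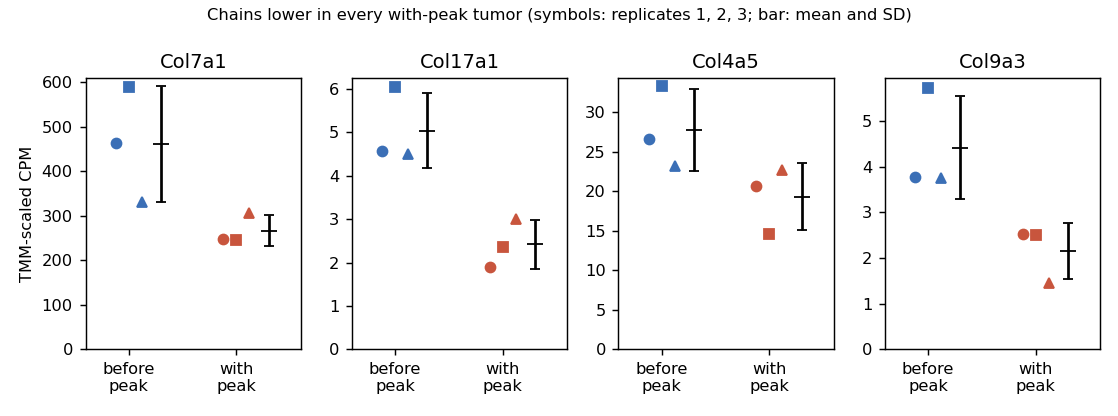
TMM-scaled CPM of Col7a1, Col17a1, Col4a5 and Col9a3 in each before-peak (blue) and with-peak (red) tumor, with circle, square and triangle for replicates 1, 2 and 3 and black bars for the group mean and SD. In each panel the 3 with-peak points lie below the 3 before-peak points, and the gap is narrowest for Col4a5.

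The bases before the starts of these chains, which had the smallest p-values of the class, are shown beside those of Col3a1, the chain with the highest level per kb of principal transcript. Sequences are RefSeq's on GRCm38.p6, read 5′ to 3′ on the strand of the gene, and capitals mark the CCAAT box, the GC box (GGGCGG) and the TATA box (TATAAA) on either strand, none of which overlap each other. The Col7a1 window is chr9:108953336-108953585 on the plus strand, the Col17a1 window chr19:47692095-47692292 on the minus strand and the Col3a1 window chr1:45311288-45311537 on the plus strand.
Col7a1: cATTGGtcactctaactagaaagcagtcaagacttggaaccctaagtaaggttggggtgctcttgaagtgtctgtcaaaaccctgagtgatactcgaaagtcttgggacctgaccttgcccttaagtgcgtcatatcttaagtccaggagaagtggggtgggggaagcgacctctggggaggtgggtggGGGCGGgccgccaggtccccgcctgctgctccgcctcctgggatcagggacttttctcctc
Col17a1: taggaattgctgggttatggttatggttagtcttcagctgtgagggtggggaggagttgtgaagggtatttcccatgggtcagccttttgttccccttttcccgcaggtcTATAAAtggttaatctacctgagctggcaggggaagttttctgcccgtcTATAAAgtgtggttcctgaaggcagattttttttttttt
Col3a1: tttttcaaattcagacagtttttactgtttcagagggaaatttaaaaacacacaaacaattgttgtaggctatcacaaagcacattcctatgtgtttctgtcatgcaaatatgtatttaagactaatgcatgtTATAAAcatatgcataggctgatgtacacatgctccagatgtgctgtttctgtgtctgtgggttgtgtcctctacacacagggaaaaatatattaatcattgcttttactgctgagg
The Col7a1 window holds 1 GGGCGG, at bases 61 to 56 before the RefSeq start, and 1 CCAAT on the opposite strand. The Col17a1 window holds TATAAA at bases 140 to 135 and 91 to 86 before the RefSeq start, and Col3a1 holds it at bases 117 to 112. The Col17a1 stretch shown has 198 bases and ends at the GENCODE start, which lies upstream of the RefSeq start. Its positions are therefore not counted from the end of the letters shown. A match of letters is a description and not a binding site. Over 32851 promoter windows of 250 bases, 33.8% hold CCAAT, 32.7% GGGCGG and 12.4% TATAAA, and over windows cut to 198 bases 9.08% hold TATAAA. Of the 44 collagen genes 35 have a window in the table, and within 250 bases 13 of these hold CCAAT, 21 GGGCGG and 5 TATAAA. A gene was counted when any of its windows held the motif, so these counts are not comparable with the percentages of single windows.

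Of 15 carcinoma epithelial markers, all tested and none at 0, 12 had a negative log2 fold change (median -0.20), and their sums were 3905 to 5109 CPM before the peak and 3247 to 4736 CPM with it. Krt5 and Krt14, the paired keratins of basal epithelial cells, were at 10.1 to 19.6 and 3.16 to 6.98 CPM and at 69.9 to 86.5 and 49.4 to 68.7 CPM in the 2 groups. Neither pair of groups overlapped. Cdh1, which is not a basal keratin, did not overlap either, at 228 to 335 CPM before the peak and 150 to 224 CPM with it. These 3 of the 15 markers did not overlap, all lower with peak, against 7.38% of all genes tested in that direction. Krt17, another basal keratin of the list, had a positive log2 fold change (0.37, SE 0.34) and overlapped, at 3.21 to 5.56 CPM before the peak and 4.00 to 6.58 CPM with it. Krt8 and Krt18, the keratins of simple epithelium, overlapped too. The part of these cells in the values of Col7a1 and Col17a1 was not tested.

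Type VI collagen is made largely by fibroblasts, and 2 of its chains, Col6a1 and Col6a2, had the highest level per kb of principal transcript among the other collagens. With the summed length of all annotated exons, Col7a1 at 35.4 CPM per kb was above Col6a2 at 32.1 CPM per kb. Col6a1 was at 370.5, 355 and 423 CPM before the peak and at 267, 564 and 366 CPM with it, and Col6a2 at 229, 209 and 285 and at 185, 453 and 245 CPM. With-peak tumor 2 was the highest and with-peak tumor 1 the lowest tumor for both. Their log2 fold changes of 0.06 (SE 0.25) and 0.29 (SE 0.34), with edgeR adjusted p of 0.957 and 0.819, became -0.28 and -0.17 without with-peak tumor 2. Col6a3 had a log2 fold change of -0.01 (SE 0.35). Col6a5 and Col6a6, low chains that lie 27917 bases apart on chromosome 9, shared a high value in with-peak tumor 2, at 12.8 and 13.3 CPM against 1.20 to 3.01 and 1.88 to 6.75 CPM in the other tumors. Col6a6 shares exon bases with a gene on the opposite strand. Col6a4, next to them, instead was highest in before-peak tumor 3, at 5.33 CPM against 0 to 1.49 CPM elsewhere. Col6a4, Col6a5 and Col6a6 were singled out after their values were seen.

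Col8a1, the network collagen of vessel wall and cornea, was at 151 to 208 CPM before the peak and 155 to 201 CPM with it, a log2 fold change of 0.10 (SE 0.16). Col8a2, Col13a1, Col23a1 and Col28a1 had log2 fold changes of 0.31, 0.08, 0.08 and -0.51, each with an SE of at least 0.52 and under 16 CPM in every tumor. Col10a1, Col25a1 and Col26a1 had 11 to 15 counts in all and were not tested.

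Collagen also needs enzymes, chaperones and partners. Of 80 genes in 6 lists of that pathway, 76 are in the table and 73 were tested. None passed edgeR's adjusted p of 0.05, 11 were higher and 2 lower at an unadjusted p under 0.05, and DESeq2 called 3, all higher: Tgm2, Aspn and Ctsk (adjusted p in DESeq2 0.0372, 4.09e-04 and 2.76e-05). The 11 were 4 fibril-binding proteins, 1 cross-linking enzyme and 2 genes each of modification and folding, of the receptors and of degradation and uptake, and the 2 lower ones belong to propeptide cleavage. For all genes tested, 6.12% were higher and 3.38% lower at that unadjusted p, and DESeq2 called 1.55%.

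Among 24 genes of modification and folding, 18 were positive and the median was 0.10. P4ha3 and P4hb, subunits of prolyl 4-hydroxylase, which stabilizes the helix, had log2 fold changes of 0.61 (SE 0.20) and 0.31 (SE 0.10), and edgeR gave both an adjusted p of 0.397. P4hb was at 757 to 867 CPM before the peak and 986 to 1046 CPM with it. Serpinh1, the collagen chaperone HSP47, singled out after its values were seen, was at 607 to 702 and 612 to 916 CPM. The summed level of the whole list did not overlap between the groups, at 3251 to 3469 CPM and 3483 to 3984 CPM, a narrow gap. The gap lies between before-peak tumor 3, at 3469 CPM, and with-peak tumor 1, at 3483 CPM. P4hb alone supplied 867 and 1006 CPM of those sums, so the gap rests on P4hb and is not a trait of the whole list. The list was not summed without it. Of the 24 genes, 3 did not overlap on the higher side and 1 on the lower, against 8.13% and 7.38% of all genes tested.

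Of 7 tested genes of propeptide cleavage, Bmp1, the C-proteinase, had a log2 ratio of -0.28 (SE 0.12) and Pcolce2, an enhancer of that cleavage, one of -0.55 (SE 0.24), with edgeR adjusted p of 0.498 and 0.519. Of 6 cross-linking genes, Tgm2, a transglutaminase, was at 229 to 371 CPM before the peak and 396 to 519 CPM with it (log2 ratio 0.70, SE 0.20; adjusted p in edgeR 0.363). Loxl1, a lysyl oxidase, had a log2 ratio of 0.55 (SE 0.34) and with-peak tumor 2 as its highest tumor.

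Proteins that bind collagen fibrils had the highest median of the 6 lists, 0.62, with 12 of 14 positive. Aspn, a small leucine-rich proteoglycan, was at 13.6, 9.94 and 20.1 CPM before the peak and at 33.4, 54.7 and 31.3 CPM with it, and the groups did not overlap (log2 ratio 1.45, SE 0.31; adjusted p in edgeR 0.216). Bgn, a proteoglycan of the same family, was at 328 to 498 CPM before the peak and at 467 to 896 CPM with it, and with-peak tumor 3 overlapped the other group. The sum of these proteins, like that of the fibrillar chains, was highest in with-peak tumor 2.

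Among 10 tested receptors, Lair1, an inhibitory collagen receptor of leukocytes, had a log2 ratio of 0.65 (SE 0.19) and Itga11, the collagen integrin of fibroblasts, one of 1.19 (SE 0.40), with edgeR adjusted p of 0.373 and 0.397. For both, the groups did not overlap, higher with peak. Itgb1, singled out after its values were seen, did not overlap on the lower side. It was at 1135 to 1230 CPM before the peak and 996 to 1087 CPM with it. Of the 10 receptors, 2 thus did not overlap on the higher side and 1 on the lower, against 8.13% and 7.38% of all genes tested. Among 12 tested genes of degradation and uptake, Ctsk, a cysteine protease that cuts the collagen helix, was at 38.8, 60.4 and 47.2 CPM before the peak and at 163, 227 and 76.9 CPM with it (log2 ratio 1.67, SE 0.41; adjusted p in edgeR 0.356). Mmp8, the collagenase of neutrophils, had a log2 fold change of 1.33 (SE 0.47; adjusted p in edgeR 0.428). It was at 1.85, 3.60 and 2.25 CPM before the peak and at 10.7, 3.29 and 5.43 CPM with it. With-peak tumor 1 was far above the rest, and the groups overlapped. Of 16 macrophage markers 16 were positive, none was at 0, and their sums were 3608 to 5844 CPM before the peak and 6458 to 10010.5 CPM with it. Their part in the values of Lair1 and Ctsk was not tested.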

How the data were processed

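The authors deposited raw counts per Ensembl gene, whole numbers without normalization, 1 column per tumor; FastQC, STAR and mm10 are named in the submitters' processing notes, and the sources used here name neither the counter nor its annotation. Per the labels' protocols, oligo(dT)-selected RNA was sequenced paired-end without strand. GENCODE M21 (GRCm38, the assembly of mm10) gave symbols, positions and lengths and matched 23479 of 23508 identifiers; it may differ from the counting annotation. Lengths are of the longest APPRIS principal transcript.

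Counts were filtered with filterByExpr (minimum count 10, total 15), scaled by TMM and tested with edgeR 4.0.16 in R 4.3.3 (robust quasi-likelihood, two-sided, no covariate, 3 against 3), with Benjamini-Hochberg adjustment over 16755 genes and a threshold of 0.05. The SE is the log2 fold change divided by the square root of F. Alternatives used DESeq2 1.42.0, limma-voom (limma 3.58.1), other scalings and filters, a replicate block and leaving out each tumor. The summed exon length and the pericyte list without Des were added after seeing the data. The scripts were tested on simulated data. Members and lists were chosen with earlier results of these data known. Per class, the 3 chains highest per length and the 2 with the smallest p are given by tumor, and from each pathway list the 2 with the smallest p.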

Additional observations from a re-analysis of the deposited data

How the results depend on the processing

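Depth limits the low chains, which rest on few counts per tumor. With 1 tumor left out edgeR called 0 chains at the adjusted threshold; at an unadjusted p under 0.05 it gave 0 to 5 chains higher (5 without before-peak tumor 3, among them Col1a1, Col1a2 and Col3a1) and 3 to 8 lower (8 without with-peak tumor 2), and 6 to 17 pathway genes higher and 0 to 2 lower. The class medians then ran from -0.02 to 0.55 (fibrillar), -0.33 to -0.013 (basement membrane), -0.42 to -0.13 (fibril-associated) and -0.37 to 0.23 (other), and the median of all chains from -0.30 to 0.07. DESeq2 called 1 chain, Col7a1, and gave 2 chains and 18 pathway genes higher at an unadjusted p under 0.05. Without a filter on low counts 1 chain was higher, Col4a4, which that filter removes, and with library size alone 4 pathway genes were lower. The labels tie no tumors by number, and deviations of same-numbered tumors correlated at -0.06, -0.10 and 0.03; with the replicate block 0 chains were called, 3 were lower and 0 higher at an unadjusted p under 0.05, and 0 pathway genes were lower. The shares of all genes at an unadjusted p under 0.05, 6.12% higher and 3.38% lower, belong to the main fit. They were not taken under these alternatives, so the counts there are no result about collagens. The cause of these changes was not tested. The 17 chains described by tumor under the class rule kept their direction in 214 of 221 values. The exceptions were Col6a1 (-0.0040 by limma-voom, -0.0057 with the replicate block, and -0.28 to 0.29 with 1 tumor left out, lowest without with-peak tumor 2), Col6a2 (-0.17 to 0.54, lowest without the same tumor), Col4a2 (-0.33 to 0.015, highest without with-peak tumor 3) and Col12a1 (-0.40 to 0.075, with 0.075 without before-peak tumor 3 and 0.050 without with-peak tumor 3).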
